A study of Bos taurus with 16 samples.

Results

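Insulin-like growth factor 2 (IGF2, ENSBTAG00000013066) was followed in the prefrontal cortex (PFC) of 16 bulls. It is 1 of the 27607 genes whose expression was estimated in every animal, and it was chosen because its values differed between the 2 breeds of these same animals. The aggressive group held 8 Lidia bulls, a breed selected for fighting behavior, of which 4 came from the farm La Quinta and 4 from Montealto. The non-aggressive group held 8 Wagyu bulls of 1 farm. All were non-castrated males of 3 years, except Agg_8174, which was 4 years old, and each animal gave 1 library. Lidia samples were taken at the bullring after the fight and Wagyu samples at the slaughterhouse, so breed, farm, handling and sampling site cannot be told apart. Lidia bulls are named as in their labels (Agg_8312 and so on), and Wagyu bulls by breed and label number.

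IGF2 is a secreted peptide hormone that binds the IGF1 receptor and an insulin receptor isoform, while the IGF2 receptor takes it up for degradation. IGF-binding proteins (IGFBPs) hold it in the extracellular space and regulate its access to these receptors. In most fetal tissues of mammals the gene is imprinted and read from the paternal copy. In the brain it is best known from the meninges and the choroid plexus, and it has been studied for its role in memory.

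The gene lies on the forward strand of chromosome 29 from 49394907 to 49422468 in ARS-UCD 1.2, a span of 27562 bases, and the files list 5 transcripts for it. All 5 contain the exon from 49417191 to 49417353. They start at 5 positions, the earliest at 49394907 and the latest at 49415194. No other gene of the files overlaps it. In a RefSeq gene table of the assembly ARS-UCD2.0, the neighbouring genes in order are TSPAN32, ASCL2, TH and INS before IGF2, and MIR483, H19 and MRPL23 among those after it.

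Levels are given in FPKM, a unit that relates the fragments of a transcript to its length and to all mapped fragments, and were summed over the transcripts of a gene. They were rescaled so that the median gene has the same level in all animals. In the La Quinta bulls IGF2 was at 3.62 FPKM in Agg_8312, 23.4 in Agg_8314, 27.6 in Agg_8320 and 31.3 in Agg_8324. In the Montealto bulls it was at 4.73 FPKM in Agg_8165, 5.77 in Agg_8171, 9.67 in Agg_8174 and 32.5 in Agg_8162. High values were thus found in 3 La Quinta bulls and 1 Montealto bull, and the remaining bull of La Quinta lay below all 4 of Montealto. In the Wagyu bulls the level was 0.555 FPKM in Wagyu 12, 0.761 in Wagyu 1, 0.918 in Wagyu 7, 1.08 in Wagyu 6, 1.91 in Wagyu 5, 3.43 in Wagyu 9, 9.59 in Wagyu 4 and 12.8 in Wagyu 3. Of these, 6 lay below every Lidia bull, and Wagyu 3 and Wagyu 4 lay among the Lidia values.

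**Figure D1:**
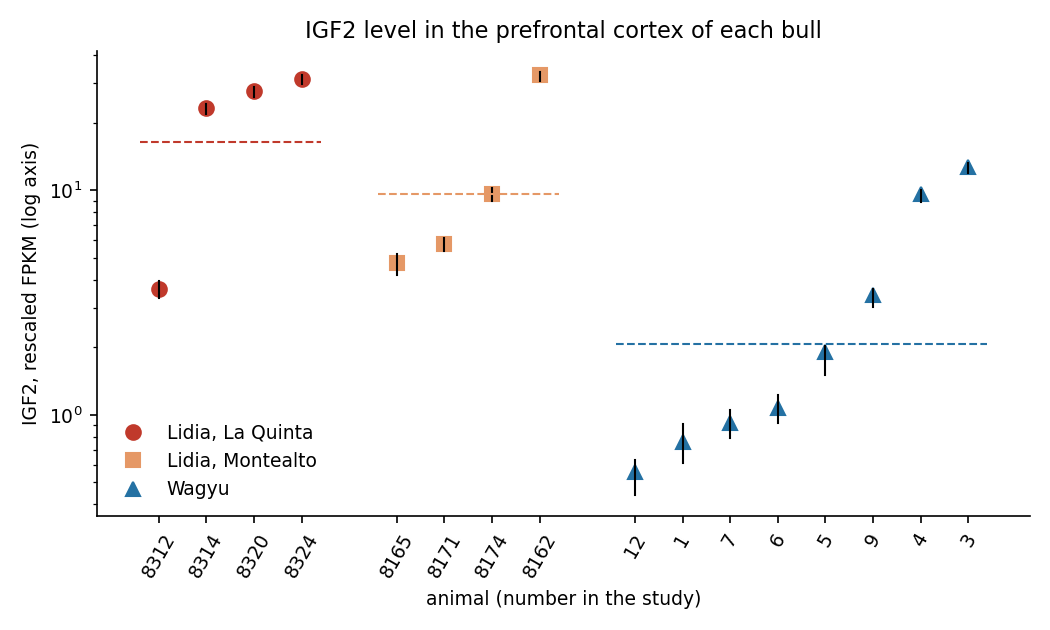
IGF2 level of each bull in rescaled FPKM on a log axis, grouped by farm and ordered within it; the x axis gives the animal's number, vertical lines are the Cufflinks 95% intervals of the leading transcript, and dashed lines are geometric means. La Quinta has 1 low bull at 3.62 FPKM, Montealto 1 high bull at 32.5 FPKM, and Wagyu 2 high bulls at 9.59 and 12.8 FPKM.

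The breeds overlapped. The 4 highest bulls were Lidia, above all Wagyu values, where 9.74% of all tested genes had at least 4 Lidia bulls there. Lidia bulls averaged 17.3 ± 12.6 FPKM (SD, n = 8) and Wagyu bulls 3.88 ± 4.67 FPKM (SD, n = 8), with medians of 16.5 and 1.5 FPKM. On the log2(FPKM + 0.1) scale the Lidia group was higher by 2.52 (SE 0.68), and the geometric mean was 6.08 times that of the Wagyu group. The gene was picked on this difference, so it is given as a description and without a test. Against the same 8 Wagyu bulls, the La Quinta bulls alone were higher by 2.90 (SE 0.84) and the Montealto bulls alone by 2.13 (SE 0.84) on the log2 scale. The 4 highest Lidia bulls held 82.8% of the IGF2 FPKM of their group, and the 2 highest Wagyu bulls held 72.1% of theirs. In bulk tissue, fewer cells that express a gene and less RNA per cell cannot be told apart.

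The spread between bulls of a breed was wide. From Wagyu 12 to Agg_8162 the level differed 58.6-fold. Within a breed the SD of IGF2 was 1.48 on the log2 scale, against a median of 0.31 over the 16577 genes tested, of which 489 had a larger SD. Among the 2723 genes whose mean log2 level was within 0.5 of that of IGF2, 35 had a larger SD. Each Cufflinks estimate was narrower than this spread, since the 95% interval of the leading transcript reached between 4.66% and 19.9% of its level to either side. Along the order of the 16 bulls, 6 of the 15 neighbouring pairs had intervals that met. These were Agg_8162 with Agg_8324, Agg_8174 with Wagyu 4, Agg_8312 with Wagyu 9, and the chain of Wagyu 6, Wagyu 7, Wagyu 1 and Wagyu 12. In Agg_8162 only 5.39% of the tested genes had a higher level than IGF2, whereas in Wagyu 12 it was 78.6%.

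The farms gave a comparison within the Lidia breed that the choice of the gene had not used. The log2 level was 4.05 ± 1.45 (SD, n = 4) in La Quinta and 3.28 ± 1.24 (SD, n = 4) in Montealto, a difference of 0.77 (SE 0.97). This was smaller than the spread between bulls (limma adjusted p = 0.888; exact two-sided permutation test over 70 splits, p = 0.486, where 0.0286 is the smallest p possible with 4 against 4). Over all genes tested, 15 of 16577, or 0.0905%, were called between the farms. Without Agg_8312 the difference was 1.49 on the log2 scale, and without Agg_8165 it was 0.43.

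Nearly all of the IGF2 signal was assigned to 1 transcript. ENSBTAT00000017372, with 5 exons from 49403864 to 49422468 and 3797 exonic bases, held between 92.3% and 100% of the gene's FPKM in each bull. Its share averaged 99.5 ± 0.391% (SD, n = 8) in the Lidia group and 97.9 ± 2.64% (SD, n = 8) in the Wagyu group. Its last exon, from 49419257 to 49422468, holds 3212 of these bases. All 3797 bases also lie in ENSBTAT00000084689, which has 1371 bases found in no other transcript. The share is therefore an assignment by Cufflinks and does not rest on bases unique to the leading transcript. The coverage of ENSBTAT00000017372 ranged from 3.06 in Wagyu 1 to 241 in Agg_8162, so the low Wagyu levels rest on a lower coverage. The share did not differ between the farms beyond the spread (exact two-sided permutation test, p = 1, n = 4 and 4).

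The other 4 transcripts were at the edge of detection. ENSBTAT00000071998, which starts at 49415194, averaged 1.03% of the gene and had an interval above 0 in 2 animals, at 0.26 FPKM in Agg_8162 and 0.229 FPKM in Agg_8314. ENSBTAT00000044139, with a first exon from 49412393 to 49412557, had an interval above 0 in 1 animal, Wagyu 3, at 0.105 FPKM. For ENSBTAT00000084689 and ENSBTAT00000085576 the interval included 0 in all 16 animals, and the upper bounds did not exceed 0.0601 and 0.0523 FPKM. The lowest leading share, 92.3% in Wagyu 5, came with 6.56% for ENSBTAT00000071998, whose interval included 0 in that animal. At this depth no switch between transcripts was detectable.

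Of the genes that act with IGF2, 3 binding proteins of 27 listed genes carry a symbol here, because symbols could be paired only for genes that the study listed as differing between these animals. Their direction is therefore not independent evidence. IGFBP2, abundant in fetal and adult brain fluids, ranged from 4.03 to 18.5 FPKM in the Lidia group (median 8.68) and from 1.51 to 7.81 in the Wagyu group (median 4.21). The log2 difference was 1.21 (SE 0.41, limma adjusted p = 0.1). IGFBP4, which inhibits IGF action, differed by 0.67 (SE 0.20, limma adjusted p = 0.0651), with medians of 4.86 and 2.92 FPKM. IGFBP7, a related protein of vessel walls that binds IGFs weakly, differed by 0.46 (SE 0.15, limma adjusted p = 0.0981), with medians of 10.03 and 6.72 FPKM. With limma, 0 of the 3 were called and all 3 had an unadjusted p under 0.05, where 827 of 16577 genes, or 4.99%, were called in either direction and 21.1% had an unadjusted p under 0.05. Both groups overlapped for each of the 3.

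In the Lidia group, IGFBP2 was highest in the 4 bulls with the highest IGF2. It was at 10.8 FPKM in Agg_8314, 13.6 in Agg_8162, 15 in Agg_8320 and 18.5 in Agg_8324, and between 4.03 and 6.59 FPKM in the other 4 bulls. The correlation of log2 levels with IGF2 was r = 0.90 over the 8 Lidia bulls (exact permutation p = 0.0122, adjusted p = 0.0529) and Spearman's rho was 0.86 (exact permutation p = 0.0107, adjusted p = 0.0696). It thus missed the threshold after adjustment over the 26 correlations computed in both breeds. It passed with the FPKM as deposited (r = 0.94, adjusted exact permutation p = 0.0163) and without Agg_8165, Agg_8171 or Agg_8174 (adjusted exact permutation p = 0.0155, 0.0464 and 0.032). On the deposited scale, the median r with IGF2 over all genes was 0.59 in the Lidia group, against 0.05 after rescaling. The pass on that scale therefore cannot be set apart from this general rise. Without Agg_8312 and Agg_8324, the bulls farthest from the median of IGFBP2, r was 0.86 (n = 6). In the Wagyu group r was 0.66 (exact permutation p = 0.0799, adjusted p = 0.208) and rho 0.79 (exact permutation p = 0.0279, adjusted p = 0.119), and r was 0.41 without Wagyu 1 and Wagyu 12.

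For IGFBP7, r in the Wagyu group was 0.85 (exact permutation p = 0.00734, adjusted p = 0.0384) and rho 0.71 (exact permutation p = 0.0576, adjusted p = 0.166). The relation rests on Wagyu 3 and Wagyu 4, at 12.3 and 8.70 FPKM of IGFBP7, since without them r was 0.50 over 6 bulls (exact permutation p = 0.3). It did not pass with the FPKM as deposited (r = 0.79, adjusted exact permutation p = 0.0838), and when 1 bull was left out it passed only without Wagyu 5, with adjusted exact permutation p-values of 0.011 to 0.251. In the Lidia group r was 0.23 (exact permutation p = 0.579, adjusted p = 0.659; rho 0.07, exact permutation p = 0.882, adjusted p = 1). For IGFBP4 r was 0.36 in the Lidia group and 0.51 in the Wagyu group, with adjusted exact permutation p-values of 0.534 and 0.347 (rho 0.29 and 0.24, exact permutation p = 0.501 and 0.582, both with an adjusted p of 0.797).

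Of 11 other imprinted genes listed, CDKN1C and PEG10 carry a symbol. Both had been listed by the study as differing in these animals, so their calls and directions are not independent evidence. CDKN1C, a cell cycle inhibitor read from the maternal copy, was called higher in the Lidia group, at a median level of 2.30 against 0.86 FPKM and a log2 difference of 1.15 (SE 0.22, limma adjusted p = 0.01). It also lies on chromosome 29, from 48728420 to 48730918, before IGF2 and outside the 500 kb window described below. PEG10, a gene of retroviral origin read from the paternal copy, was lower, with a log2 difference of -0.62 (SE 0.10, limma adjusted p = 0.00374). Its 8 Lidia values, from 11.6 to 17.1 FPKM, lay below all 8 Wagyu values, from 18.1 to 26.0 FPKM, where 0.706% of all tested genes had no overlap between the breeds. Among the bulls of a breed, r with IGF2 was 0.16 and 0.58 for CDKN1C and -0.31 and 0.34 for PEG10, in the Lidia and the Wagyu group, respectively. These r are descriptions, each over 8 bulls.

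Around IGF2, 29 genes lay within 500 kb on chromosome 29, of which 16 had a mean of at least 0.1 FPKM and were tested. The nearest gene ends 370 bases before IGF2 and was at 0 FPKM in all 16 animals. The next ends 3496 bases before it and had a mean of 0.423 FPKM in the Lidia group and 0.373 FPKM in the Wagyu group. With limma, 1 of the 16 was called higher in the Lidia group and 0 lower, and 3.33% and 1.66% of all tested genes were called higher and lower. An unadjusted p under 0.05 was found for 4 of the 16, and for 21.1% of all tested genes, so both counts are near the background. The called gene was CD81, a tetraspanin of the cell membrane, with a mean of 90.0 FPKM against 67.7 FPKM and a log2 difference of 0.40 (SE 0.11, limma adjusted p = 0.0429). With the FPKM as deposited, 0 of the 16 were called. The log2 differences of the 16 ran from -0.91 to 0.57, with a median of 0.18 against -0.01 over all tested genes, and lay below the 2.52 of IGF2.

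**Figure D2:**
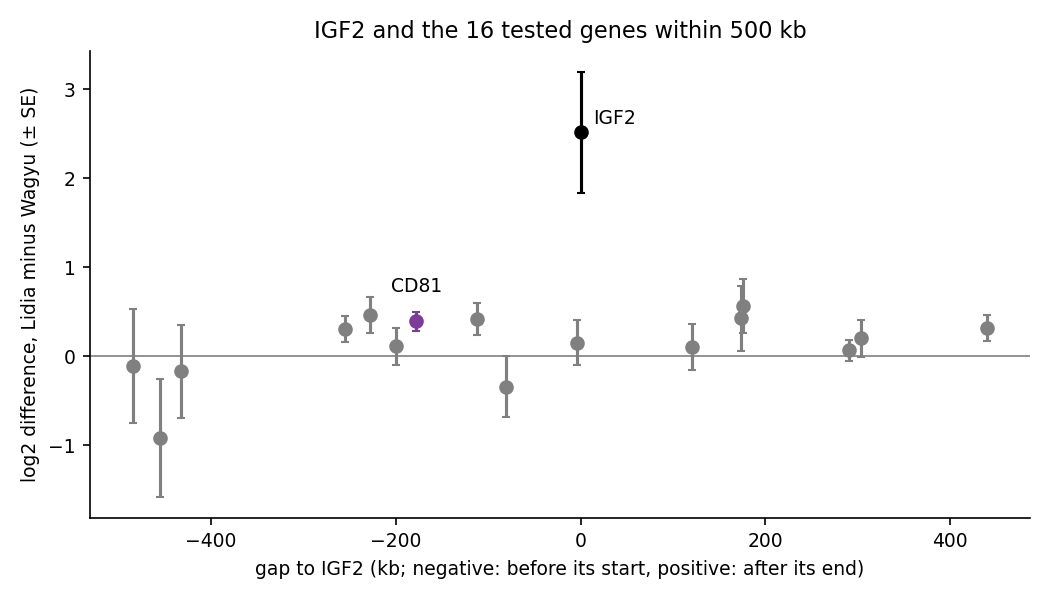
Log2 difference between the Lidia and Wagyu groups (y axis, with SE) of IGF2 and of the 16 tested genes by their gap to it in kb (x axis). The neighbours lie between -0.91 and 0.57, and IGF2 at 2.52.

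Lists of marker genes were set beside IGF2 because the meninges, which cover the cortex, and the choroid plexus are its best known sites in the brain. Neuronal and glial markers were checked in every animal, which does not test whether the tissue came from the PFC. The summed level of 3 excitatory neuron markers was between 108 and 204 FPKM and that of 4 astrocyte markers between 181 and 485 FPKM in every animal. Of 14 meningeal fibroblast markers 12 carry a symbol, among them the collagens COL1A1, COL1A2 and COL3A1, the small proteoglycans DCN and LUM, and the transporters SLC6A13, SLC13A4 and SLC22A6. None of the 12 was at 0 in any animal. Their summed level was between 20.5 and 109 FPKM in the Lidia group (median 44.9) and between 9.69 and 38.1 FPKM in the Wagyu group (median 11.7).

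The meningeal fibroblast list was high in the bulls with high IGF2. Its sum was 59.9 FPKM in Agg_8314, 74.4 in Agg_8324, 83.0 in Agg_8320 and 109 in Agg_8162, and between 20.5 and 29.9 FPKM in the other Lidia bulls. In the Wagyu group it was 38.1 FPKM in Wagyu 3, 30.3 in Wagyu 4, and between 9.69 and 14.1 FPKM in the other 6. Over the 8 Lidia bulls the log2 sum correlated with IGF2 at r = 0.96 (exact permutation p = 0.00169, adjusted p = 0.023) and rho = 0.93 (exact permutation p = 0.00223, adjusted p = 0.029). Without Agg_8162 and Agg_8165, the bulls farthest from the median of the list, r was 0.96 (n = 6, exact permutation p = 0.0111). Over the 8 Wagyu bulls r was 0.93 (exact permutation p = 0.00179, adjusted p = 0.023) and rho 0.95 (exact permutation p = 0.00114, adjusted p = 0.029). Without Wagyu 3 and Wagyu 4 it was 0.69 (n = 6, exact permutation p = 0.124), so that in this group the relation rests on those bulls. With the farm means removed, r in the Lidia group was 0.96. Without Wagyu 3 alone, or without Wagyu 4 alone, r in the Wagyu group was 0.89 and 0.91, with adjusted exact permutation p-values of 0.0938 and 0.061. The members could enter only through the study's list of genes that differ in these animals. The list was also chosen with earlier results of these data known. Its correlation p-values are therefore not independent evidence, and the same holds for the other lists and the binding proteins.

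**Figure D3:**
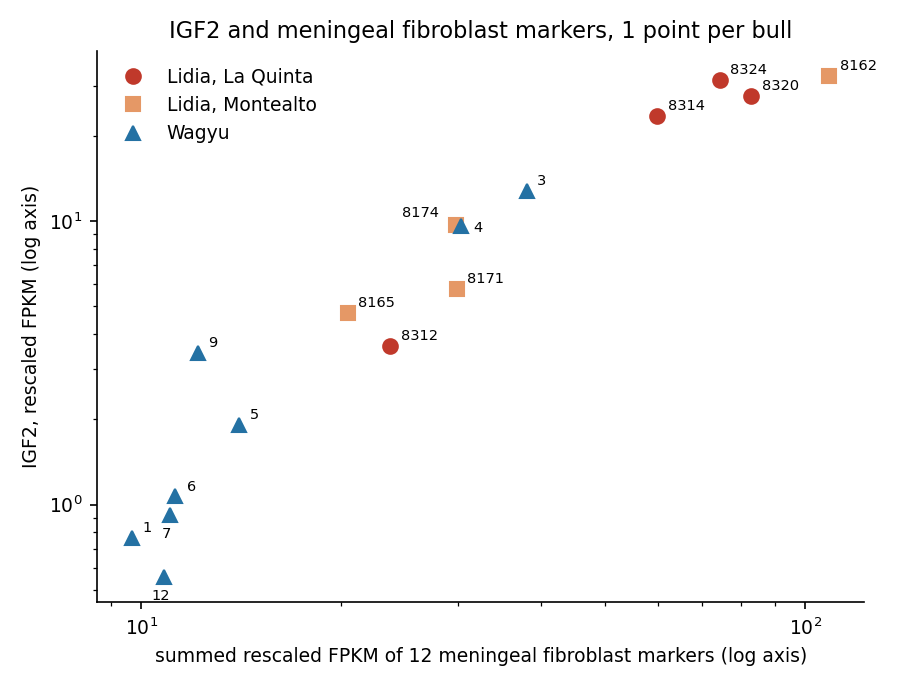
IGF2 level against the summed level of 12 meningeal fibroblast markers, both in rescaled FPKM on log axes, with 1 point per bull labelled by its number. Agg_8314, Agg_8320, Agg_8324 and Agg_8162 stand at the upper right, and 6 Wagyu bulls with sums of 9.69 to 14.1 FPKM at the lower left.

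The single markers varied in how closely they followed IGF2. SLC13A4, a sulfate transporter, ran from 0.494 to 14.8 FPKM in the Lidia group and from 0.0624 to 2.41 FPKM in the Wagyu group, with r of 0.97 and 0.93. Its Wagyu median was 0.137 FPKM, near the 0.1 FPKM added before taking logs. Wagyu 3, Wagyu 4 and Wagyu 9 were at 2.21, 2.41 and 0.631 FPKM. The Wagyu medians of TBX18 and FOXC2, 0.055 and 0.060 FPKM, lay below the added 0.1 FPKM. DCN ran from 5.74 to 21.8 FPKM and from 1.63 to 8.05 FPKM, with r of 0.93 and 0.96. The lowest r in the Lidia group was the 0.74 of LUM, and in the Wagyu group the 0.74 of PRELP. Between the breeds, limma called 6 of the 12 higher in the Lidia group (COL1A1, COL1A2, DCN, SLC6A13, SLC13A4 and TBX18) and 0 lower, against 3.33% and 1.66% of all tested genes. The median log2 difference of the list was 1.59, and -0.01 over all tested genes. All 12 had been listed by the study as differing in these animals, so their direction is not independent evidence. The part of meningeal tissue in the IGF2 difference was not tested.

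Relative to the meningeal fibroblast list, IGF2 varied less, over an 8.23-fold range in the 16 bulls. The level of IGF2 was between 15.3% and 42.1% of the list's sum in the Lidia group and between 5.12% and 33.5% among Wagyu bulls. The log2 ratio averaged -1.84 ± 0.51 (SD, n = 8) in the Lidia group and -2.86 ± 1.046 (SD, n = 8) in the Wagyu group, a difference of 1.014 (SE 0.41), where IGF2 itself differed by 2.60 (SE 0.76) and the list's sum by 1.59 (SE 0.42) without a pseudocount. Wagyu 3, Wagyu 4 and Wagyu 9, at 33.5%, 31.6% and 28.2%, lay within the Lidia range, and the other 5 Wagyu bulls lay between 5.12% and 13.6%. These values are a description, since IGF2 and the list's genes were both chosen on the breed difference.

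Between the breeds, limma called 3 of 5 endothelial, 2 of 3 mural, 2 of 4 astrocyte and 1 of 4 microglia markers higher in the Lidia group, and 2 of 4 inhibitory neuron markers lower, against 3.33% and 1.66% of all tested genes. All of these markers come from the study's list of genes that differ in these animals. In the oligodendrocyte, excitatory neuron, choroid plexus and erythrocyte lists 0 were called, with 2 of 5, 3 of 3, 0 of 1 and 1 of 1 at an unadjusted p under 0.05, against 21.1% of all tested genes. The part of these cell types in the IGF2 difference was not tested. TTR, the thyroid hormone carrier of the choroid plexus and the only member of that list with a symbol, was at 1.053 to 1.78 FPKM in the 4 La Quinta bulls and at 7.51 to 18.8 FPKM in the 4 Montealto bulls. The farms did not overlap, as for 3.6% of all tested genes, but TTR was not called between them (log2 difference -2.92, SE 0.93, limma adjusted p = 0.696). Its r with IGF2 was -0.32 in the Lidia group (exact permutation p = 0.428, adjusted p = 0.572; rho 0, exact permutation p = 1) and 0.56 in the Wagyu group (exact permutation p = 0.156, adjusted p = 0.325; rho 0.52, exact permutation p = 0.197, adjusted p = 0.365). The 3 mural cell markers CSPG4, NOTCH3 and PDGFRB, of the cells that wrap small vessels, had r of 0.80 in the Lidia group (exact permutation p = 0.018, adjusted p = 0.067; rho 0.81, adjusted p = 0.113) and 0.77 in the Wagyu group (exact permutation p = 0.00739, adjusted p = 0.0384; rho 0.76, adjusted p = 0.119). Without the 2 bulls farthest from the median, r was 0.77 and 0.58 over 6 bulls each. With the mean of log2 levels in place of the summed level, r was 0.50 in the Lidia group and 0.76 in the Wagyu group. PDGFRB had r of 0.87 and 0.78, NOTCH3 -0.09 and 0.61, and CSPG4 -0.25 and 0.26. Unlike the other two, CSPG4 was not called and had a negative log2 difference between the breeds, -0.57 (SE 0.17, limma adjusted p = 0.0607). With the FPKM as deposited, the mural list did not pass in the Wagyu group (r = 0.66, adjusted exact permutation p = 0.173). When 1 Wagyu bull was left out, it passed only without Wagyu 6, with adjusted exact permutation p-values of 0.0284 to 0.414.

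The endothelial list, 5 genes of the vessel lining, had r of 0.91 in the Wagyu group (exact permutation p = 0.00265, adjusted p = 0.023; rho 0.88, adjusted p = 0.0628), and 0.64 over 6 bulls without Wagyu 3 and Wagyu 4 (exact permutation p = 0.182). When 1 Wagyu bull was left out, the list passed in 4 of 8 settings, with adjusted exact permutation p-values of 0.011 to 0.0938. In the Lidia group r was -0.41 (exact permutation p = 0.36, adjusted p = 0.534; rho -0.36, adjusted p = 0.675). There Agg_8165 had an endothelial sum of 110 FPKM, while the other 7 Lidia bulls lay between 27.9 and 39.4 FPKM, and without Agg_8165 r was 0.03. Its members differed: in the Lidia group r was -0.51 for CLDN5, a tight junction protein that reached 97.5 FPKM, -0.29 for ESAM and -0.06 for VWF. It was 0.81 for CDH5, the cadherin of vessel walls, and 0.89 for KDR, a receptor of vascular endothelial growth factor. Whether the breeds differ in this correlation was not tested. In all, 1 of 10 lists passed in the Lidia group and 3 of 10 in the Wagyu group. The 7 lists other than meningeal fibroblast, mural and endothelial had r between -0.63 and 0.22 in the Lidia group and between -0.71 and 0.58 in the Wagyu group, and the smallest adjusted exact permutation p among them was 0.146. The lowest r of the Wagyu group was that of the excitatory neuron markers (exact permutation p = 0.0449, adjusted p = 0.146).

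**Figure D4:**
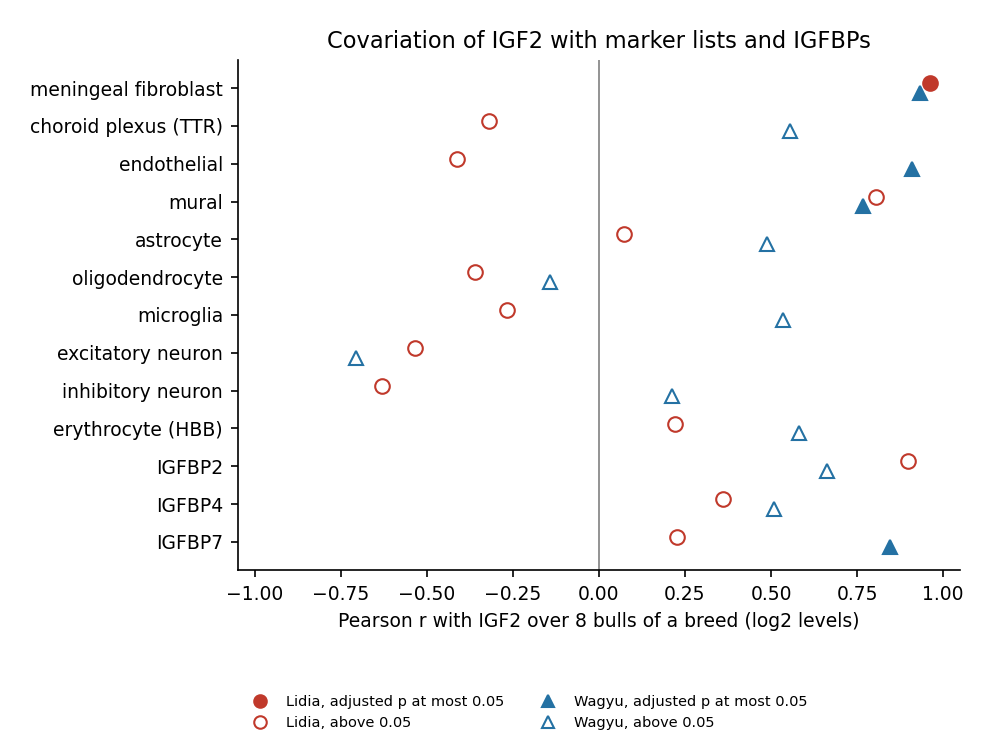
Pearson r of log2 levels with IGF2 (x axis) over the 8 bulls of each breed, for 10 marker lists and 3 IGF-binding proteins (y axis); filled symbols have an adjusted exact permutation p of at most 0.05. The meningeal fibroblast list is at 0.96 and 0.93, and the endothelial list at -0.41 in Lidia and 0.91 in Wagyu.

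Across all genes, 121 of 16368 had r of at least 0.8 with IGF2 in both breeds, or 0.739%, and 43 had at least 0.9. The median r over all genes was 0.05 in the Lidia group and -0.03 in the Wagyu group. No gene had r of -0.8 or lower in both. Genes were ranked by the smaller of their 2 values of r, each over 8 bulls, as a description. Of the 121, 87 were among the 999 other genes with a symbol, and 8 of the 12 meningeal fibroblast markers were among these.

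The gene with the highest rank was ENSBTAG00000005858 on chromosome 3 from 112513879 to 112521623, which has no symbol here, with r of 0.98 in the Lidia and 0.99 in the Wagyu group. BMP6, a secreted bone morphogenetic protein, had r of 0.98 and 0.97, and levels of 0.781 to 3.90 FPKM (median 1.97) and 0.281 to 1.53 FPKM (median 0.518). All 4 Lidia bulls with the highest IGF2 had at least 2.55 FPKM of BMP6, and the other 4 had at most 1.40 FPKM.

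The 15 genes with a symbol and the highest rank included several matrix and cytoskeletal proteins. EFEMP1, a fibulin of the matrix, ran from 3.24 to 24.4 FPKM in the Lidia group and from 1.13 to 6.10 FPKM in the Wagyu group, with r of 0.98 and 0.96. VIM, the intermediate filament of mesenchymal and glial cells, ran from 26.9 to 150 FPKM and from 9.57 to 55.2 FPKM, with r of 0.96 and 0.95. The fibrillar collagens COL3A1 and COL1A2 had r of 0.96 in both breeds and of 0.96 and 0.94, respectively. ITIH2, whose product binds hyaluronan, had r of 0.94 in both.

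CRABP2, which carries retinoic acid to its receptor, ran from 0.898 to 24.01 FPKM in the Lidia group (median 9.22) and from 0.433 to 6.53 FPKM in the Wagyu group (median 0.679), with r of 0.98 and 0.97. WFIKKN2, an inhibitor of growth and differentiation factors, had r of 0.99 and 0.94, and MDFI, an inhibitor of MyoD family factors, 0.99 and 0.95. The transcription factors ZIC1 and ALX1, of meningeal and of cranial mesenchyme development, had r of 0.97 and 0.94 and of 0.95 and 0.95. In the Wagyu group the medians of ALX1, WFIKKN2, MDFI and ITIH2 were 0.048, 0.030, 0.055 and 0.038 FPKM. These lie below the 0.1 FPKM added before taking logs, so their r in that group rests mainly on the few bulls above it. KANK2, a regulator of cell adhesion, WDR86 and C25H16orf89 had r of 0.96 and 0.94, 0.98 and 0.96, and 0.99 and 0.94. C25H16orf89 ran from 0.0310 FPKM in a Wagyu bull to 22.1 FPKM in a Lidia bull. Of the 15, COL1A2 and COL3A1 belong to the meningeal fibroblast list. When genes were ranked by Spearman's rho instead, 4 of the 15 stayed among the leading 15 with a symbol.

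Between the breeds, 9 of the 15 were called higher in the Lidia group with limma, against 3.33% of all tested genes, with log2 differences from 1.09 to 3.30 over the 15 and a median of 1.90. All of them come from genes that the study listed as differing in these animals. The rank did not use the breed difference, but the pool of symbols did.

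The 5 genes with a symbol that ran most opposite to IGF2 in both breeds did so less closely. Among all genes they ranked only 34, 44, 70, 127 and 134 in this direction, whereas the 15 most alike with a symbol lay within the leading 18. NEUROD2, a transcription factor of excitatory neurons, had r of -0.70 in the Lidia group and -0.66 in the Wagyu group, with levels of 5.43 to 9.58 FPKM and of 6.47 to 12.97 FPKM. SYNPR, a protein of synaptic vesicles, had r of -0.94 and -0.64, and levels of 29.9 to 43.9 FPKM and 41.7 to 56.7 FPKM. LDHA, which reduces pyruvate to lactate, had r of -0.73 and -0.61, SDK2, an adhesion protein of synapses, -0.58 and -0.65, and MCHR1, the receptor of melanin-concentrating hormone, -0.57 in both. Of the 5, SYNPR (log2 difference -0.48, SE 0.09, limma adjusted p = 0.012) and MCHR1 (log2 difference -0.44, SE 0.10, limma adjusted p = 0.0169) were called lower in the Lidia group. These negative correlations depended on the rescaling. With the FPKM as deposited, r was 0.26 and 0.12 for SYNPR, 0.24 and -0.05 for NEUROD2, and 0.99 and 0.94 for BMP6. On that scale r was higher for genes in general. Its median over all genes was 0.59 in the Lidia group and 0.28 in the Wagyu group, against 0.05 and -0.03 after rescaling.

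**Figure D5:**
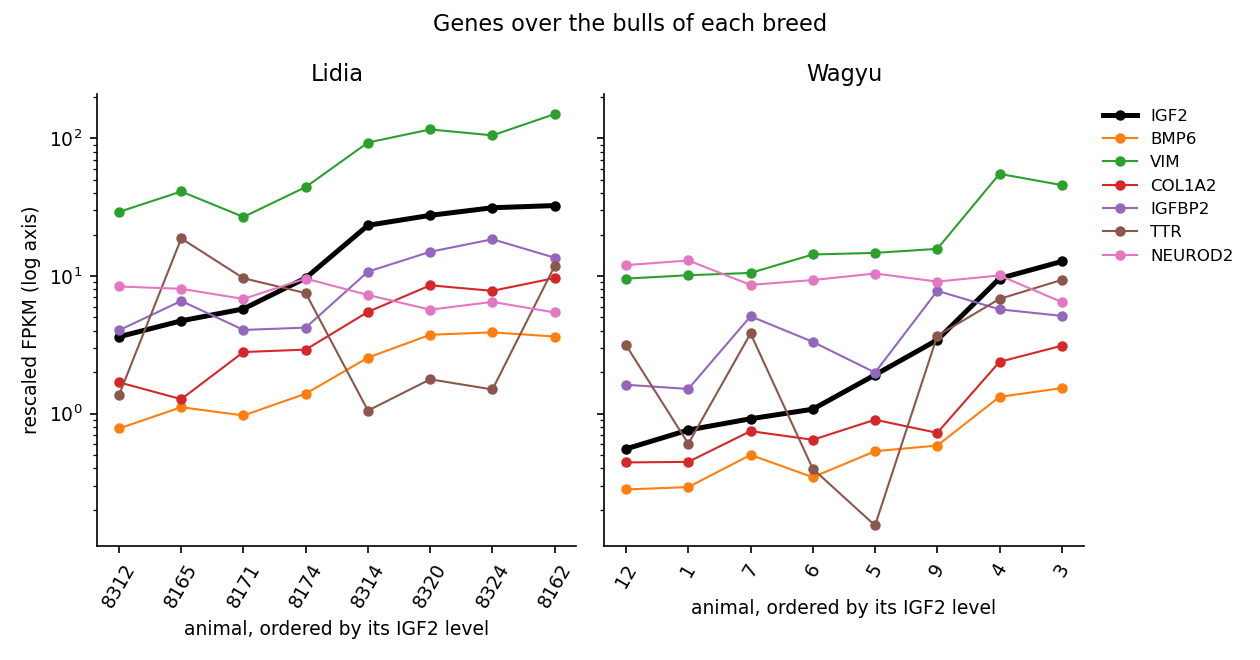
Rescaled FPKM on a log axis of IGF2 and 6 other genes in the bulls of each breed, with the animals on the x axis ordered by their IGF2 level. BMP6, VIM and COL1A2 rise with IGF2 in both panels, TTR runs from 1.053 to 18.8 FPKM in the Lidia panel without following it, and NEUROD2 runs from 5.43 to 12.97 FPKM over both.

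For the series as a whole, coverage divided by FPKM gave between 7.67 M and 37.0 M fragments per animal (M, 10 to the power 6) when a fragment was taken as 200 bases. The deposited FPKM of Wagyu 5 and Agg_8324 stood apart, with rescaling factors of 2.21 and 1.78, where the other 14 animals had factors of 0.617 to 1.13. Before rescaling, IGF2 was at 4.23 FPKM in Wagyu 5 and at 55.9 FPKM in Agg_8324. The number of genes called between the breeds was 827 after rescaling. It was 0 with limma on the FPKM as deposited, with 1022 genes at an unadjusted p under 0.05, and 246 without Wagyu 5 and Agg_8324.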

How the data were processed

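The authors trimmed paired reads of 100 bases with PRINSEQ, mapped them with STAR 2.7.3a to ARS-UCD 1.2 with Ensembl genes, sorted them with SAMtools 0.1.18 and estimated transcripts with Cufflinks 2.2.1. For each animal they deposited FPKM (fragments scaled to transcript length and mapped fragments), its 95% bounds and read coverage for 43984 transcripts. The values are not counts, and animals were not scaled to each other; the labels also name Cuffdiff, whose output was not analysed here. Libraries were stranded. Whether Cufflinks used strand is not given in the sources used here.

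FPKM were summed per gene and divided by the median of ratios over 15998 genes above 0 in all 16 animals. The test was limma 3.58.1 (R 4.3.3, variance trend, two-sided, Benjamini-Hochberg adjustment) over the genes whose mean reached 0.1 FPKM, on log2(FPKM + 0.1), a scale that understates changes of low genes. Calls needed an adjusted p no higher than 0.05 and a log2 difference of 0.1 or more in size. The farm comparison fitted 1 mean per farm. Each library was 1 animal.

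Correlations within a breed used log2 levels, all 40320 pairings of 8 bulls, two-sided, and Benjamini-Hochberg adjustment over 26 values (10 lists and 3 binding proteins in 2 breeds). Spearman's rho and FPKM as deposited were adjusted in the same way. A list's level was the log2 of its summed FPKM. Genes without spread in a breed, 208 in number, were left out of the ranking. Symbols came from positions in the study's list of differing genes: of 1197 entries 1000 were paired by identical start and end. Farms came from the study's sample table. The genes named are IGF2, its transcripts, the members of the lists and of the 500 kb window with a symbol, the 15 most alike and the 5 most opposite with a symbol, and the 1 leading identifier. Of the 15, 1 is counted but not reported here. Members and lists were chosen with earlier results of these data known. Alternatives were FPKM as deposited, upper-quartile rescaling, pseudocounts of 1 and 0.01, other filters, no variance trend and leaving out animals, with the rescaling factors kept. Other steps used pandas 2.3.3, scipy 1.17.1 and numpy 2.4.6 (Python 3.11.15).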

Additional observations from a re-analysis of the deposited data

Results flagged for a closer look

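Animals far from the rest of their group were sought with Dixon's test at 95% in 28 groups of values, of which chance alone singles out about 1 in 20. In La Quinta, the log2 IGF2 level of Agg_8312, 1.90, stood below those of the other 3 bulls, which lay between 4.55 and 4.97. In the Wagyu group, the share of the leading IGF2 transcript in Wagyu 5, 92.3%, stood below the 96.4% to 100% of the other 7. In La Quinta, the log2 IGFBP7 level of Agg_8320, 3.65, stood above the 3.31 to 3.35 of the other 3 bulls.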

How the results depend on the processing

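The description of IGF2 itself moved little: the log2 difference between the breeds was 2.01 with a pseudocount of 1, 2.59 with 0.01 and 2.47 on the FPKM as deposited, and ran from 2.26 (without Wagyu 12) to 2.88 (without Wagyu 3). Between the farms it ran from 0.43 to 1.49 when 1 animal was left out. Over all genes, the 827 calls between the breeds became 0 with the FPKM as deposited and 246 without Wagyu 5 and Agg_8324, an alternative chosen after seeing the data, and ran from 362 (without Wagyu 12) to 1454 (without Wagyu 3). The 15 calls between the farms became 6, 8 and 9 with the FPKM as deposited, a mean of at least 1 FPKM and without Wagyu 5 and Agg_8324. With the FPKM as deposited, 0 neighbours of IGF2 were called in place of 1, and 2 marker lists passed within the Lidia group in place of 1. On that scale the median r with IGF2 over all genes was 0.59 in the Lidia group and 0.28 in the Wagyu group, against 0.05 and -0.03 after rescaling. Within the Wagyu group, 1 list passed with Spearman's rho, and between 0 (without Wagyu 3 or Wagyu 4) and 3 when 1 bull was left out. The endothelial list in the Lidia group turned from -0.41 to 0.0829 with the mean of log2 levels and to 0.0304 without Agg_8165, in a range of -0.59 to 0.0304 over the bulls left out. The genes with r of at least 0.8 in both breeds numbered 91 with Spearman's rho, 113 with the FPKM as deposited and 155 without Wagyu 5 and Agg_8324, and 64, 71 and 84 of the leading 100 were shared. Of the leading 15 with a symbol, 4, 10 and 10 were shared. The causes of these changes were not tested. No paired analysis was possible because nothing in the design pairs a Lidia bull with a Wagyu bull. Coverage limits the minor IGF2 transcripts and the low Wagyu levels.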
